A study of Mus musculus with 4 samples.

Results

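Small nucleolar RNA (snoRNA) and small Cajal body-specific RNA (scaRNA) genes were examined in C2C12 cells, mouse myoblasts kept as a line, which fuse to myotubes after a switch to differentiation medium (DM). The genes were taken by name as every row of the expression tables whose symbol starts with Snora, Snord or Scarna. This gave 123 members among 24850 named entries in the total RNA tables, of which 37 were H/ACA (Snora), 77 C/D (Snord) and 9 Cajal body (Scarna) members, with 114 distinct symbols. The polyA tables held 124 members among 24992 named entries, and the additional one was Snord118, listed at 0 there. Total RNA depleted of rRNA was sequenced from myoblasts (MB, DM -24 h) and myotubes (MT, DM 72 h), and polyA RNA from cells at DM 48 h that had received a siRNA against hnRNPL (si-hnRNPL) or a control siRNA (si-NC). The hour of MT follows the label, although the study's text gives an earlier one for an RNA-seq comparison of MT and MB. All 4 libraries came from the same line, and the labels name no other allele or agent. Each condition was 1 library, so differences could not be checked against replicates and were not tested.

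Box C/D snoRNAs carry a C box near the 5′ end and a D box near the 3′ end, and guide fibrillarin to ribosomal RNA nucleotides that receive 2′-O-methyl groups. H/ACA snoRNAs fold into hairpins followed by an ACA trinucleotide and guide dyskerin to uridines that become pseudouridines. ScaRNAs have one or both architectures and guide the modification of spliceosomal snRNAs in Cajal bodies. In mammals most of these RNAs are cut out of spliced introns of host genes, many of which encode ribosomal proteins or serve mainly as snoRNA hosts, and the mature RNA has no polyA tail.

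The sequences below were read from the mm9 genome over each locus as the tables list it, 5′ to 3′ on the strand given by the GENCODE annotation of that build. The capitals mark ACA within the last 8 bases of H/ACA and Cajal body members and, in C/D members, CTGA within the last 12 bases and TGATGA anywhere. Printed are the 8 members whose MB and MT intervals did not overlap, a near copy of one of them, further C/D members with high levels, and examples of members listed at 0. The lower H/ACA members in MT were as follows.
Snora16a (chr4:131865380-131865515, plus strand, 136 bp): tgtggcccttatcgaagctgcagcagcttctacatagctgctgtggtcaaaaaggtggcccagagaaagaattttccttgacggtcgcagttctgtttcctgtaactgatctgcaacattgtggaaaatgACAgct
Snora43 (chr2:26493367-26493505, minus strand, 139 bp): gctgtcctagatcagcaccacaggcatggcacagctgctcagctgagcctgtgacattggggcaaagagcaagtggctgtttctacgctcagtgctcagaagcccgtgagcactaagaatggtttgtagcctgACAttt
Snora52 (chr7:148634702-148634835, plus strand, 134 bp): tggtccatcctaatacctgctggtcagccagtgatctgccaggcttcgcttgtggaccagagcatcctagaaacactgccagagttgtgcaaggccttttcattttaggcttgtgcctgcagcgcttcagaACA
Snora64 (chr17:24857734-24857850, plus strand, 117 bp): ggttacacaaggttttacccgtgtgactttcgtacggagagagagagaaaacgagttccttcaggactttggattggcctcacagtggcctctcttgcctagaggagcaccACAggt
Snora78 (chr17:24856621-24856777, minus strand, 157 bp): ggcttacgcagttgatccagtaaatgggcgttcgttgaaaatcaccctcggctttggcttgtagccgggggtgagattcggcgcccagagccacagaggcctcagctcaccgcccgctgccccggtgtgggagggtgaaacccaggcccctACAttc
The Cajal body members below comprise the one that was higher in MT, its near copy, and Scarna13, which had the most fragments of all members.
Scarna3a (chr1:161270438-161270555, plus strand, 118 bp): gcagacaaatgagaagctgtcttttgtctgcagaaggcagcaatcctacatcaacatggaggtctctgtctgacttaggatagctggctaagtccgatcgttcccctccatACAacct
Scarna3b (chr12:81492601-81492724, minus strand, 124 bp): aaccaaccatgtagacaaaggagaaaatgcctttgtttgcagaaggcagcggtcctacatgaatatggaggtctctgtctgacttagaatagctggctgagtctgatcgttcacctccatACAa
Scarna13 (chr12:106269287-106269559, minus strand, 273 bp): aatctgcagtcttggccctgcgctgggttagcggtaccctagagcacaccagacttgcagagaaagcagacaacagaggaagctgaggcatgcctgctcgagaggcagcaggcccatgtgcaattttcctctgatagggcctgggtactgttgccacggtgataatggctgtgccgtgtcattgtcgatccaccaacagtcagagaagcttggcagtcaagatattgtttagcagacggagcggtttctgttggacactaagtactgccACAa
The C/D members below were above 0 in both libraries, and Snord17 was higher in MT.
Snord17 (chr2:144091718-144091938, minus strand, 221 bp): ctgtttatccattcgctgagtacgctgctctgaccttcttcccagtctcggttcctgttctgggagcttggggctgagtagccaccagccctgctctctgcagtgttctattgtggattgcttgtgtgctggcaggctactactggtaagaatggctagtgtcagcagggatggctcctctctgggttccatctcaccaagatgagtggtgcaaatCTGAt
Snord22 (chr19:8800356-8800481, plus strand, 126 bp): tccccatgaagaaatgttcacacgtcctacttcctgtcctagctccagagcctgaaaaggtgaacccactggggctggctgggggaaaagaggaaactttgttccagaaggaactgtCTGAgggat
Snord15b (chr7:106628073-106628217, minus strand, 145 bp): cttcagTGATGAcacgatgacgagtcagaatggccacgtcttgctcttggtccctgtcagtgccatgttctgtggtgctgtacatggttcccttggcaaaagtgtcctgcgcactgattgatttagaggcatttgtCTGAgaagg
Snord16a (chr9:64023239-64023329, plus strand, 91 bp): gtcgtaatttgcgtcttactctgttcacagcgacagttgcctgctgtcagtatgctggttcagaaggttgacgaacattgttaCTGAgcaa
The last sequences belong to members listed at 0 in every library, and each locus is short.
Snord32a (chr7:52382753-52382833, minus strand, 81 bp): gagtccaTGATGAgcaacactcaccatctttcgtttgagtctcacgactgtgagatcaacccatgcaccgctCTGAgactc
Scarna2 (chr3:108357260-108357320, minus strand, 61 bp): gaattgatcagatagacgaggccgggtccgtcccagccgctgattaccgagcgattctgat

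The names fitted the sequence boxes. CTGA stood in the last 12 bases of 74 of 76 C/D members with a known strand and in 2 of 36 H/ACA members, against 5.26% of flanking windows of the same lengths beside the C/D members. ACA stood in the last 8 bases of 34 of 36 H/ACA members and 1 of 76 C/D members, against 8.33% of windows beside the H/ACA members. On the opposite strand of the members themselves, CTGA was found in 2 C/D members and ACA in 7 H/ACA members. TGATGA, the core of the C box, was found in 30 of 76 C/D loci and 0 of 36 H/ACA loci. Beside the C/D members 11.2% of flanking windows held it, and so did 2 of 9 Cajal body loci. TGATGA was found in 53 C/D members when the longer interval of the GENCODE annotation was read. Of the 9 Cajal body members, 4 held the CTGA and 4 the ACA ending, and these letters mark a match and not a tested site.

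The loci in the tables were often shorter than the annotated genes at the 5′ end. Among 121 members with an annotated counterpart, 75 lacked 5 or more bases there, with a median of 10 bases, whereas 89 ended within 2 bases of the annotated 3′ end. For 6 members the row covered a small piece of the gene, among them Scarna2 (61 bp listed, 414 bp annotated), Scarna10 (71 against 325 bp) and Snora61 (62 against 130 bp). These rows were all listed at 0. Snora78 was the reverse case, with 157 bp listed and 128 bp annotated.

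Whether a member had a value depended on its length. All 75 members of 90 bp or less were listed at 0 in MB and in MT, whereas 45 of the 48 longer members were above 0 in at least 1 of them. By class, 32 of 37 H/ACA members, 8 of 77 C/D members and 5 of 9 Cajal body members were above 0 in MB or MT. The median length was 119 bp for H/ACA, 68 bp for C/D and 118 bp for Cajal body members, so the low share among C/D members went along with their shorter loci. An exact 0 can be a failed estimate for so short a locus, and it is given here as listed at 0 and not as absence of the RNA. The other named entries of these lengths behaved alike at the short end, since of 863 entries of 90 bp or less 11 were above 0 in MB and 0 in MT. Over 110 and up to 280 bp, 27.0% of 137 other named entries were above 0 in MB and 28.5% in MT.

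**Figure D1:**
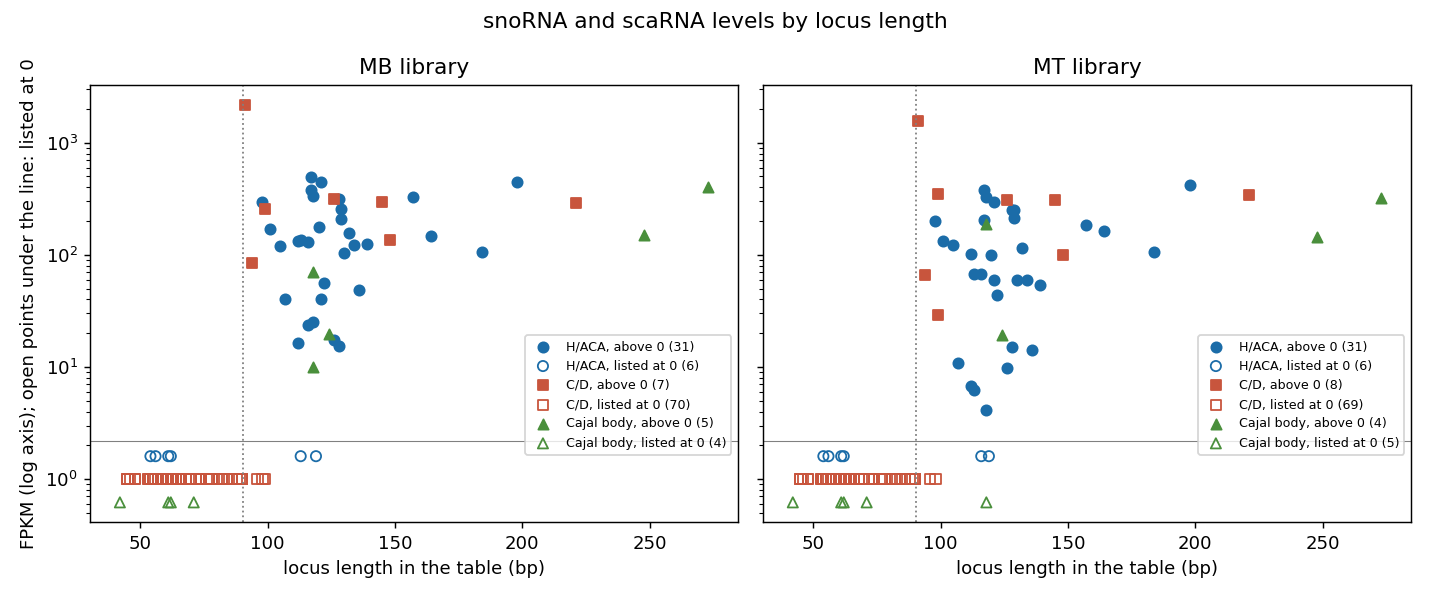
FPKM (log axis) of the 123 members against the locus length in bp, in MB (left) and MT (right), with H/ACA as blue circles, C/D as red squares and Cajal body members as green triangles. Filled points are above 0, open points under the grey line are listed at 0, and no member left of the dotted line at 90 bp has a value.

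Well-known C/D sets fell on the short side of this limit. Snord32a, Snord33, Snord34 and Snord35a, which lie within the ribosomal protein gene Rpl13a, had loci of 66 to 89 bp and were listed at 0 in MB and MT, while Rpl13a stood at 453 FPKM in MB and 269 in MT. The 11 rows of the imprinted Snord116 cluster and of Snord64 spanned 46 to 90 bp and were at 0. Snord47, the one row from the Gas5 host gene, spanned 65 bp and was at 0 beside 44.9 FPKM of Gas5 in MB and 22.6 in MT. Among the hosts of all members at 0 in both libraries, 17 of 45 reached 100 FPKM or more in MB, with a median of 67.9 FPKM, and 2 were under 1 FPKM. Only 3 members over 90 bp were at 0 in both libraries, namely Snora35 (119 bp), Snord67 (98 bp) and Snord7 (96 bp, with too little data for an estimate by the status column). The host of Snora35, the serotonin receptor gene Htr2c, was itself at 0.00263 FPKM in MB and 0.0151 in MT.

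The fragments behind a value were read from its 95% interval, which for a pure count has a half-width of 2 standard errors. The result was within 0.1 of a whole number for 40 of 43 members above 0 in MB and 39 of 43 in MT. The members summed to 10806 fragments in MB and 10677 in MT, or 0.0180% and 0.0196% of the fragments implied over all entries. The median member rested on 29 fragments in MB and 28 in MT, and 13 members in each library had fewer than 10. Such intervals hold the error of counting and of assigning reads, not the spread between cultures.

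The level in FPKM and the number of fragments ranked the members differently. Snord16a, in an intron of Rpl4, had the highest level with 2174 FPKM in MB (interval 968 to 3380) and 1548 in MT (654 to 2442), on 13 and 12 fragments. Scarna13, also called U93 and built from a pair of H/ACA domains, had 405 FPKM in MB (392 to 418) and 324 in MT (313 to 335), on 3834 and 3285 fragments. A fragment was therefore worth 167 FPKM for the 91 bp Snord16a and 0.106 FPKM for the 273 bp Scarna13 in MB. After Snord16a, the highest C/D levels by the mean of MB and MT were those of Snord17, Snord22, Snord8 and Snord15b, and the highest H/ACA levels those of Snora74a, Snora44, Snora26, Snora34 and Snora64. The H/ACA levels of this group ranged from 335 to 492 FPKM in MB and from 205 to 422 in MT, and the MB intervals of Snora44, Snora26, Snora34 and Snora64 overlapped each other. The authors' status column marks Snora26 as having too little data in both libraries. Its intervals ran from 0 to 573 FPKM in MB and from 0 to 397 in MT.

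**Figure D2:**
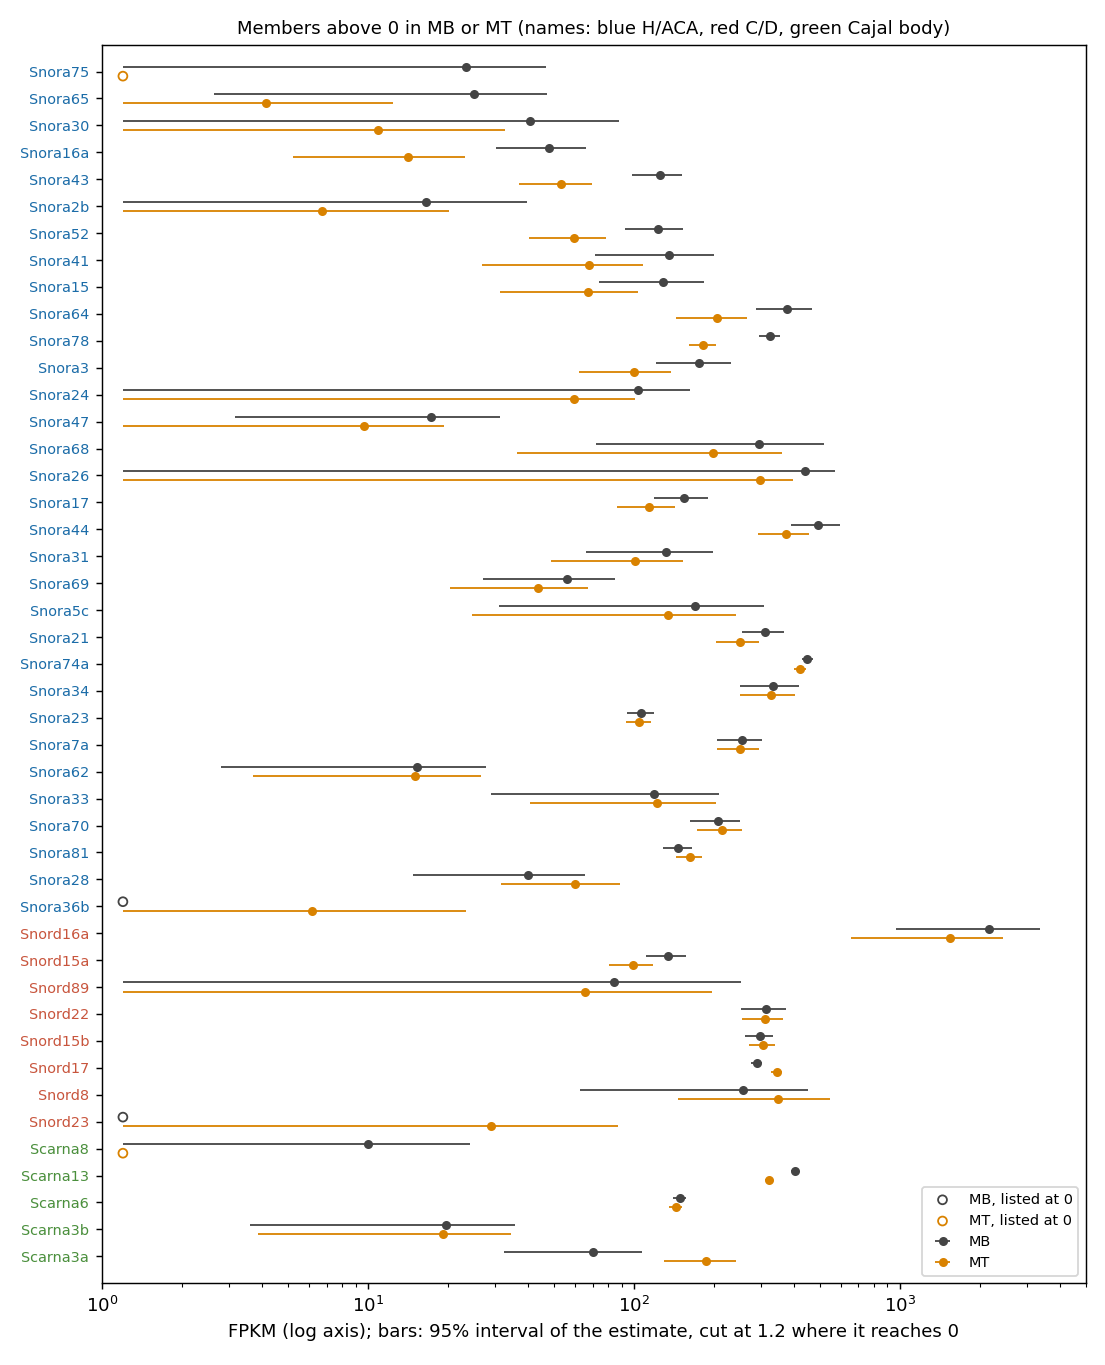
FPKM (log axis) of the 45 members above 0 in MB (grey) or MT (orange), 1 library each, with the 95% interval of the estimate as bars cut at 1.2 where they reach 0, ordered by class and by the change. Open circles are listed at 0, and the grey and orange bars are apart for Snora16a, Snora43, Snora52, Snora64, Snora78, Snord17, Scarna13 and Scarna3a.

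The MB and MT libraries were compared to describe the members across differentiation. The change was taken as log2 of the ratio of FPKM + 1, MT over MB, and a member was counted as higher or lower at an absolute value of 0.58 or more. Of the 45 members above 0, 3 were higher and 15 lower in MT, against a background of 10.4% higher and 18.3% lower among 18624 named entries above 0. Only 10791 named genes had at least 1 FPKM in both libraries, and entries well below that level in both cannot pass the fold on FPKM + 1. All 43 members above 0 in MB, and all 43 in MT, were at 1 FPKM or more. The background was therefore not matched for level, and such low entries hold its shares down. The lower members were 14 of 32 H/ACA, 0 of 8 C/D and 1 of 5 Cajal body members, and the higher ones 1 of each class. The median change was -0.36 for the 45 members, -0.50 for H/ACA, 0.01 for C/D and -0.05 for Cajal body members, beside -0.0049 for all named entries above 0. Named genes with at least 1 FPKM in both libraries had a median of -0.23, and relative to it 5 members were higher and 13 lower, with a median of -0.13. The background on that centred scale was 16.4% higher and 11.9% lower. Among 59 other named entries over 90 and up to 280 bp that were above 0, 20.3% were higher and 20.3% lower without centring. No test compared the classes, since members are not replicates of a condition.

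With few fragments most single changes were loosely fixed. The 95% interval of the change included 0 for 32 of the 45 members, and intervals of MB and MT that did not overlap were found for 8 members, 2 higher and 6 lower, against 26.8% higher and 37% lower, or 63.7% in all, of the named entries above 0. A value listed at 0 has an interval of no width, which makes the change intervals of such members too narrow. Scarna8, on 2 fragments in MB and at 0 in MT, had -5.31 to -1.61 and is not among the 32. Requiring both the fold and intervals apart left 1 higher and 5 lower member, against backgrounds of 10.3% and 18%. As bulk measurements, these values cannot tell fewer cells with an RNA from less of it per cell. MT expressed the muscle genes Myog (0.695 FPKM in MB, 251 in MT) and Acta1 (12.1 and 479 FPKM), all 5 differentiated muscle genes examined were higher, and of 5 genes of other cell types Ptprc, Pecam1, Alb and Adipoq were at 0.0241 FPKM or less whereas the neuronal tubulin gene Tubb3 was at 56.4 FPKM in MB and 11.4 in MT.

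The H/ACA members with intervals apart were all lower in MT. Snora16a had 48.1 FPKM in MB (30.2 to 66.0) and 14.2 in MT (5.23 to 23.2), a log2 change of -1.69 (interval -2.69 to -0.69) on 29 and 10 fragments. Snora43 had 125 FPKM in MB and 53.2 in MT, a change of -1.22 (-1.75 to -0.69). Snora52, hosted by the ribosomal protein gene Rplp2, had 123 and 59.6 FPKM, a change of -1.03 (-1.61 to -0.45). In each of these the MT value was under the lower bound in MB.

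The other H/ACA members with intervals apart had more fragments or higher levels. Snora64, hosted by Rps2, had 378 FPKM in MB and 205 in MT, a change of -0.88 (-1.42 to -0.33). Snora78 had 326 FPKM (295 to 356) and 183 (161 to 204), a change of -0.83 (-1.05 to -0.62) on 456 and 290 fragments, the most among the members past the fold. Its nearest enclosing named entry was the snoRNA host gene Snhg9, at 0.357 FPKM in MB and 0 in MT.

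The remaining lower H/ACA members had FPKM intervals that overlapped between MB and MT. Snora41 had 136 and 67.8 FPKM (change -0.99, interval -2.08 to 0.10), and Snora15 had 129 and 67.5 FPKM (-0.92, -1.90 to 0.05). Snora65, Snora30 and Snora2b had changes of -2.34, -1.81 and -1.18 on 5, 3 and 2 fragments in MB and 1 fragment each in MT, with intervals that included 0. Snora3, Snora24 and Snora47 had changes of -0.81 (-1.51 to -0.11), -0.79 and -0.77, and the authors' status column marks Snora24 as having too little data. Snora75, in an intron of the nucleolin gene Ncl, was at 23.4 FPKM in MB on 4 fragments and listed at 0 in MT, so no fold is given. Just outside the fold stood Snora68 and Snora26, each at -0.57, Snora26 again with too little data. The lower member nearest to the fold from inside was Snora47 at -0.77.

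Several H/ACA members had close levels in MB and MT. Snora74a, also known as U19 and needed for rRNA processing, had 450.0 FPKM in MB (428 to 472) and 422 in MT (402 to 443), a change of -0.09 (-0.19 to 0.01) on 1695 and 1748 fragments. Snora23 had 107 and 105 FPKM (-0.03, -0.25 to 0.20) and Snora81, hosted by Eif4a2, had 147 and 163 FPKM (0.14, -0.10 to 0.39). Snora34, Snora7a and Snora70 had changes of -0.03, -0.02 and 0.05, each on more than 60 fragments, and Snora62 and Snora33 had -0.02 and 0.04 on 6 to 9 fragments. The largest rise among H/ACA members above 0 in both libraries was that of Snora28, from 40.1 to 60.2 FPKM (0.57, -0.54 to 1.69), short of the fold. Snora36b was listed at 0 in MB and at 6.17 FPKM in MT on 0.5 fragments, less than the 3 taken as the floor. It is the H/ACA member counted as higher.

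The C/D members with many fragments stayed within the fold. Snord17 had 290.0 FPKM in MB (275 to 305) and 344 in MT (329 to 360), a change of 0.25 (0.15 to 0.34) on 1566 and 2021 fragments, the one C/D member with intervals apart. Snord22, also known as U22 and needed for maturation of 18S rRNA, had 314 and 311 FPKM (-0.02, -0.39 to 0.36). Snord15b had 298 and 306 FPKM (0.04, -0.20 to 0.28), and Snord15a, from another intron of the same host Rps3, had 135 and 99.5 FPKM (-0.43, -0.79 to -0.07) with overlapping FPKM intervals.

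The other C/D members rested on few fragments. Snord16a changed by -0.49 (-1.64 to 0.66) and Snord8 by 0.43 (-0.94 to 1.80). Snord89 had 84.3 and 65.5 FPKM on 1 fragment each. Snord23 was listed at 0 in MB and at 29.0 FPKM on 1 fragment in MT, and it is the C/D member counted as higher. Snord3, Snord13, Snord14 and Snora73, further RNAs of rRNA processing, had no row under these symbols.

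Among the Cajal body members, Scarna3a had 70.0 FPKM in MB (32.6 to 107) and 186 in MT (130 to 242), a change of 1.40 (0.53 to 2.27) on 14 and 44.5 fragments. It was the one member past the fold with intervals apart in the upward direction. Its near copy Scarna3b had 19.6 and 19.2 FPKM (-0.03, -1.60 to 1.54) on about 6 fragments. The sequences printed above share 100 identical positions over 128 alignment columns (78.1%), with atggaggtctctgtctgacttag as the longest run in common (23 bases). The fragments implied in MT, 44.5 and 6.3, were not whole, and the split of reads between these copies is uncertain. Scarna13 changed by -0.32 (-0.39 to -0.25) with intervals apart but short of the fold. Scarna6, also called U88 and holding both box types, had 149 and 144 FPKM (-0.05, -0.17 to 0.07). Scarna8 was at 10.0 FPKM in MB on 2 fragments and at 0 in MT, and the other 4 Cajal body rows, of 42 to 71 bp, were at 0.

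**Figure D3:**
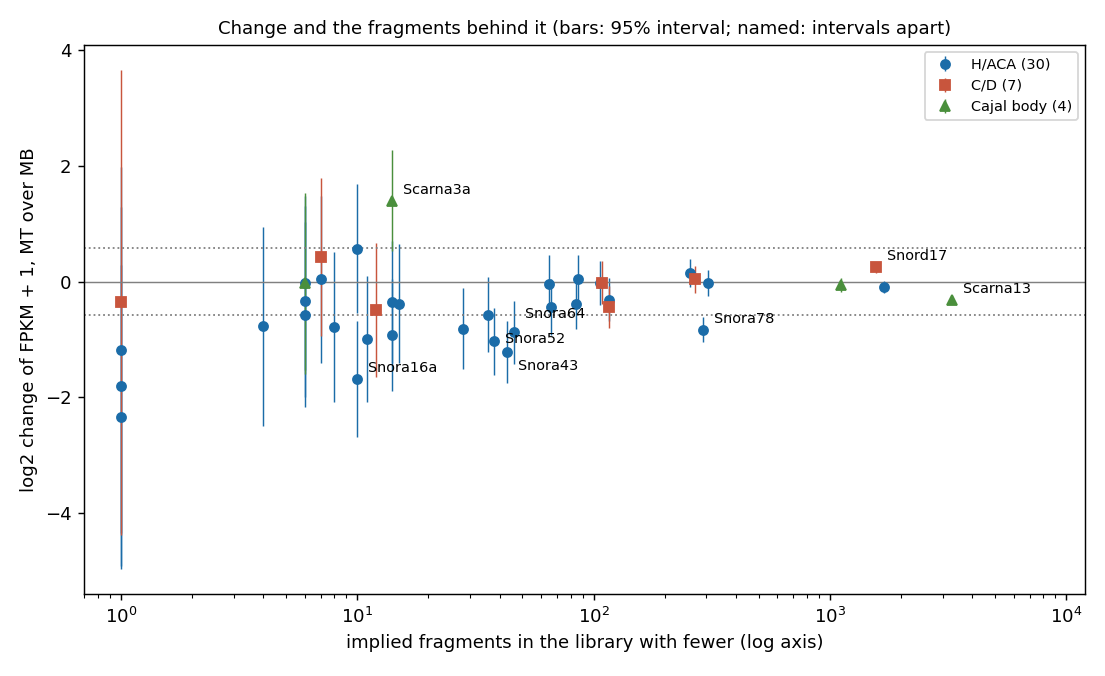
Log2 change of FPKM + 1, MT over MB, with its 95% interval for the 41 members above 0 in both libraries, against the implied fragments in the library with fewer (log axis). Dotted lines mark 0.58 in each direction, and the named members, whose MB and MT intervals are apart, include Scarna3a at 1.40 and Snora16a at -1.69.

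FPKM also weighted short loci differently in the libraries. The FPKM per fragment in MT relative to MB was 0.955 for 8510 genes with at least 2000 exon bases, 0.915 for members over 160 bp, 0.838 for those over 110 and up to 130 bp and 0.786 for those up to 110 bp. Against long genes, the log2 difference was -0.28 for the shortest and -0.06 for the longest of these groups. With fragments scaled by the single factor of long genes, an alternative added after seeing the data, the median change of the 45 members was -0.16 in place of -0.36, that of H/ACA members -0.27 and that of C/D members 0.17. On that scale 5 members were higher and 15 lower, with Snora16a at -1.56, Snora43 at -1.08, Snora78 at -0.72, Scarna3a at 1.57 and Snord17 at 0.30. Summed over the members, fragments scaled in this way were 0.943 in MT relative to MB, while summed FPKM was 0.809, or 0.837 without Snord16a, whose high level rests on few fragments. Which weighting is the better estimate for loci this short was not tested.

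**Figure D4:**
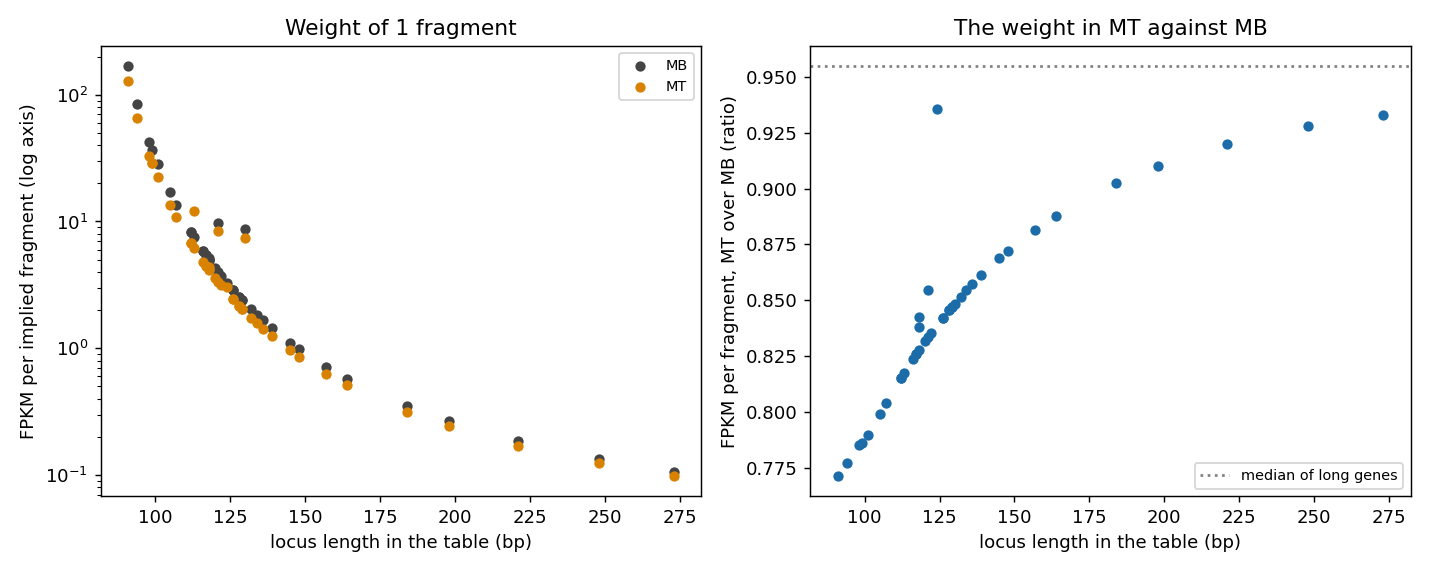
FPKM per implied fragment (log axis) against locus length in bp for members above 0 in MB (grey) and MT (orange), and on the right the ratio of MT to MB for members with at least 1 fragment in both. The weight falls from 167 FPKM at 91 bp to 0.106 at 273 bp in MB, and the ratio climbs with length towards 0.955, the dotted median of long genes.

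Host genes were compared with the RNAs inside them. A named entry enclosing the member was found for 109 of 123 members, with 81 distinct hosts. Of these members 64 lay in an intron in every annotated transcript, 33 touched an exon of some transcript and for 12 the host was not in the annotation. Snora15, Snora17 and Snora3 were among those touching an exon. The values cannot tell fragments of a host transcript over a member's locus from those of the mature RNA. How far this enters the comparisons below was not tested. The hosts were mostly lower in MT, with 48 of 81 down and 2 up by 0.58, beside 18.3% down and 10.4% up over all named entries above 0. That background was not matched for level and holds many entries too low to pass the fold on FPKM + 1. The median of the hosts was -0.65, beside -0.23 for named genes with at least 1 FPKM in both libraries. Of 22 ribosomal protein genes among the hosts 14 were down and 0 up (median -0.66).

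Among the 44 members above 0 with a host row, the median host change was -0.59 and the median member change -0.37. The change of a member less that of its host had a median of 0.17, with 26 members above and 18 below their host. For H/ACA members the median difference was 0.04 (17 above, 15 below), whereas all 7 C/D members were above their hosts (median 0.76). These 7 members had 6 hosts, since Snord15a and Snord15b share Rps3, and they include Snord23, which was listed at 0 in MB. The lower FPKM per fragment of short loci in MT enters the change of the members and not that of long hosts, and with scaled fragments for the members the median difference was 0.34 (29 above, 15 below) and that of H/ACA members 0.22 (20 above, 12 below). Across the 44 members Pearson's r between member and host change was 0.45 and Spearman's rho 0.47, as a description over members that share both libraries and in part a host. In the 29 members with at least 10 fragments in both libraries the median difference was 0.22.

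Single hosts showed how far members and hosts parted. Snord22 was level while its host Snhg1 changed by -0.95 (79.6 to 40.7 FPKM), and Snord17 was higher while its host, the sorting nexin gene Snx5, changed by -0.58. Scarna3a was higher while its host Rfwd2, a ubiquitin ligase gene, had 25.5 and 24 FPKM. Snora64 at -0.88 and Rps2 at -0.86 changed alike. The 2 hosts that were past the fold upward were Dcaf5 (0.75), the host of Scarna3b, and the translation factor gene Eif4a2 (0.60), the host of Snora81.

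Members within 1 host were compared in Snhg12, Snhg7, Rps3 and Kansl2, and the approximate interval of the difference excluded 0 in all but Kansl2. In the non-coding host Snhg12 (change -1.14) Snora16a stood at -1.69 and Snora44 at -0.39, a difference of -1.30 with an interval of -2.39 to -0.21. Snora16a rested on 10 fragments in MT. In Snhg7 (-0.95) Snora43 stood at -1.22 and Snora17 at -0.43, a difference of -0.78 (-1.50 to -0.07). In Rps3 (-0.72) Snord15a was below Snord15b by a difference of -0.47 (-0.90 to -0.04). In Kansl2 the difference of Snora2b and Snora34 had an interval of -4.35 to 2.06, with 1 fragment for the lower one. These intervals cover counting error and not the spread between cultures. Aligned to each other, Snora43 and Snora17 were 67.1% identical, and Snord15a and Snord15b 64.5%. Whether reads were shared between such copies was not tested.

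**Figure D5:**
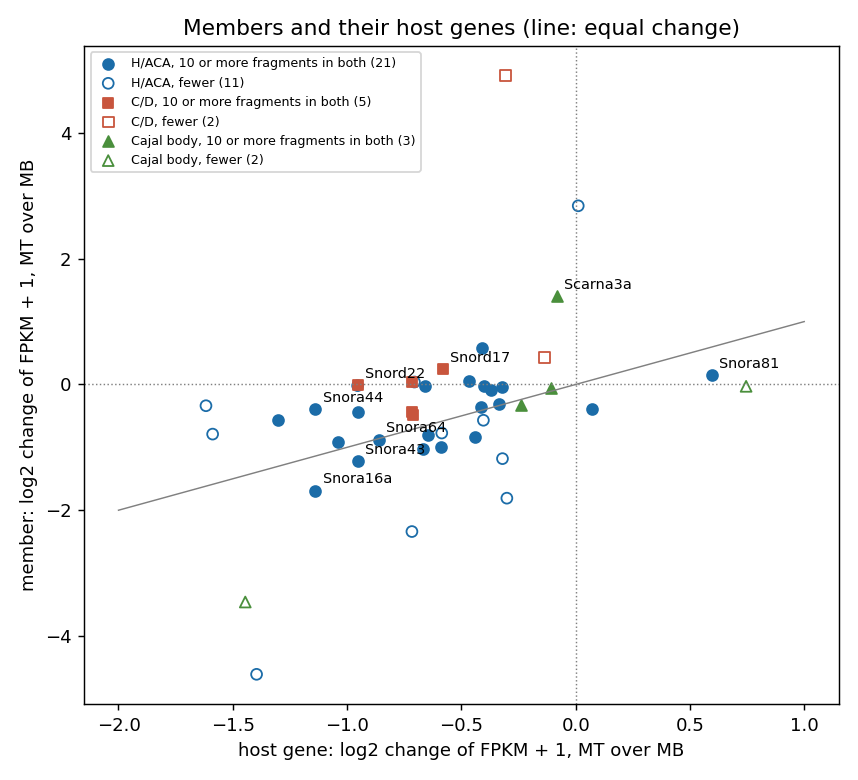
Log2 change of the member against that of its host gene (FPKM + 1, MT over MB) for the 44 members above 0 with a host row, filled where both libraries hold at least 10 fragments. The grey line marks equal change, 26 members lie above it, and all filled C/D squares are among them.

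The mRNAs of most proteins that build these particles were lower in MT. Of 26 genes with a row in 5 lists, 21 were down by 0.58 and 0 up, with a median of -1.12, beside 18.3% down and 10.4% up over all named entries above 0. That background holds many entries too low to pass the fold on FPKM + 1. It was not matched for level to the 26 genes, which were all at 5.79 FPKM or more in MB. Relative to the median of named genes 18 were down, beside 11.9%. All 5 genes listed for C/D particles, Rrp9 included, were down, from -1.09 for Nhp2l1 to -1.81 for Nop56. The methyltransferase gene Fbl had 74.0 FPKM in MB and 25 in MT. Of 4 H/ACA core genes 3 were down, among them Dkc1, the pseudouridine synthase, from 47.4 to 12.8 FPKM (-1.81), while Nop10 changed by -0.41. Of 10 assembly and transport genes 9 were down, and the exception was Znhit6 at -0.39. The interval of Nolc1 overlapped between the libraries. Of 4 Cajal body protein genes Coil, Wrap53 and Smn1 were down (-0.85, -1.29 and -1.20) and Tgs1, the cap methylase, was at -0.06. Of 3 genes of 3′ end trimming Exosc10 was down (-0.94), with Parn at -0.13 and Papd5 at -0.23.

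The polyA libraries served as a check, since mature snoRNAs have no polyA tail. Hnrnpl, the target of the siRNA, had 95.1 FPKM in the library labelled si-NC (92.7 to 97.5) and 85.9 in the library labelled si-hnRNPL (83.1 to 88.7), or 90.4% of the control. Of 124 members 17 were above 0 in either library, 14 H/ACA, 2 C/D and 1 Cajal body member, with loci of 112 to 248 bp. Their fragments summed to 15.8 under si-NC and 18.1 under si-hnRNPL, no member had more than 3 fragments, and every interval reached down to 0. Counted by the fold, 7 were higher and 6 lower in si-hnRNPL, against a background of 1.03% and 0.62% over named entries and of 65.8% and 7.89% over 38 other named entries over 90 and up to 280 bp. Intervals apart were found for 0 members, against 23.5% of named entries.

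The values behind these counts were single fragments in most cases. Snora28 had 196 FPKM in si-NC on 3 fragments and 84.2 in si-hnRNPL on 1 fragment, and Snord22 had 140 and 60.5 FPKM on the same numbers. Snora64 had 132 and 338 FPKM, and Snora70 had 38.9 and 151. Snora15, Snord15b, Snora52 and Snora23 were at 95, 34.4, 29.4 and 4.53 FPKM in si-NC and listed at 0 in si-hnRNPL. Snora34, Snora65, Snora7a, Snora74a and Scarna6 were listed at 0 in si-NC and at 314, 105, 50.5, 4.31 and 3.28 FPKM in si-hnRNPL. A difference between these libraries was not detectable at this depth for any member. Of the 26 protein genes above, 23 had a row at the same locus in the polyA tables, and 0 of them were past the fold there, beside 1.03% up and 0.62% down over all named entries.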

How the data were processed

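The authors depleted rRNA from total RNA of MB and MT and prepared polyA RNA of si-NC and si-hnRNPL cells, discarded short reads after trimming, aligned what remained to mm9 by TopHat 2.0.13 and estimated abundance with Cufflinks 2.1.1. The deposited values are FPKM with 95% intervals; the annotation release is not given in the sources used here. Depth is known only through the intervals: over all entries they imply from 14592480 to 59960176 fragments per library, and 1 library per condition leaves no replicate check.

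Members were matched by symbol and, between tables, by locus. Implied fragments were (2 x FPKM / (upper bound - FPKM)) squared. Changes were log2 of the ratio of FPKM + 1, which understates low genes, and the interval of a change combined both half-widths in quadrature. Starts were converted to count from 1. Hosts were named entries enclosing a member on its strand where known, the most highly expressed where several did, with introns from the GENCODE annotation of mm9. The members and lists were chosen with earlier results of these data known. In each of H/ACA and C/D the 8 largest rises and falls among members above 0 in both libraries, the 5 highest levels, all Cajal body members above 0, the 5 largest polyA changes either way and fixed gene lists were named; further members were chosen after their values were seen. Alternatives were other pseudocounts, filters, folds, centring, summing by symbol and, added after seeing the data, scaled fragments and at least 10 fragments. Tools were matplotlib 3.10.9, scipy 1.17.1, pandas 2.3.3 and numpy 2.4.6 under Python 3.11.15, and the calculations were tested on simulated data. The simulation used entries with many more fragments than the median member and equal FPKM per fragment in both libraries. It therefore did not cover members on few fragments or the unequal weight of short loci.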

Additional observations from a re-analysis of the deposited data

How the results depend on the processing

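The 15 lower members in MT numbered 13 where both values reached 1 FPKM, 13 when centred, 8 at a log2 change of 1, 5 with intervals that do not overlap and 8 with at least 10 fragments in both. The 3 higher members numbered 1 where both values reached 1 FPKM, with intervals apart or with at least 10 fragments, and 5 when centred or from scaled fragments. For H/ACA the 14 lower members numbered 7 at a log2 change of 1, 5 with intervals apart and 8 with at least 10 fragments, and the 1 higher member became 2 with a pseudocount of 0.1 or 0.01, when centred or from scaled fragments, and 0 where both values reached 1 FPKM, with intervals apart or with at least 10 fragments. The 1 higher C/D member became 2 when centred or from scaled fragments and 0 with those 3 filters, and the 1 lower Cajal body member became 0 with the same 3. The C/D median turned from 0.01 to -0.016 where both values reached 1 FPKM, and the Cajal body median from -0.05 to 0.18 when centred, while the medians over all members and H/ACA stayed below 0 in all alternatives (-0.36 to -0.13 and -0.50 to -0.27). The median difference from the host lay between 0.17 and 0.34. In the polyA libraries the 7 higher and 6 lower members became 2 and 2 where both values reached 1 FPKM, and 0 and 0 with intervals apart. With at least 3 fragments, 2 members were left in si-NC (1 H/ACA, 1 C/D) and 2 in si-hnRNPL (2 H/ACA, 0 C/D, 0 Cajal body). The filters keep fewer members by construction, and the causes of the other shifts were not tested. No paired analysis was possible because each condition was 1 library and no test was run. Depth limits every member under 10 fragments, and loci of 90 bp or less gave no value.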

Other observations

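Other structured non-coding RNAs were measured beside the members, and Terc, Rmrp and Rpph1 had loci of 275 to 397 bp. Terc, the telomerase RNA, which carries an H/ACA domain, had 26.8 FPKM in MB (24.5 to 29.1) and 13.2 in MT (11.6 to 14.8), a log2 change of -0.97 with intervals apart, and was listed at 0 in both polyA libraries. Rmrp, the RNA of RNase MRP, had 2236 and 1951 FPKM in MB and MT (-0.20). Rpph1, the RNA of RNase P, had 1441 and 1444 FPKM. In the polyA libraries Rmrp stood at 6.05 FPKM under si-NC and 37.2 under si-hnRNPL, and Rpph1 at 2.02 and 19.3. Most short entries were higher in that si-hnRNPL library. Of 38 named entries over 90 and up to 280 bp that were not members, 65.8% were higher by the fold and 7.89% lower. Rnu73b, a C/D snoRNA whose symbol lies outside the rule, has a locus of 71 bp and was listed at 0 in all 4 libraries, as were the members of that length. These genes were chosen after the members' values were seen, and the differences have no replicate check.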
